A study of Mus musculus with 6 samples.

Results

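Intermediate filament genes that mark glial cells, progenitors and neurons were followed in mouse primary oligodendrocyte precursor cells (mOPCs) after knockdown (KD) of the RNA-binding protein gene Qk. The members were taken by symbol, as Gfap, Vim, Nes, Synm, Nefl, Nefm, Nefh and Ina, which makes 8 of the 23038 genes in the deposited files. mOPCs are the cells from which the myelin-forming oligodendrocytes arise. Here they had been purified from mouse embryos by immunopanning, in which cells are caught on antibody-coated dishes. The cultures received a control siRNA (siNC, 3 libraries) or siRNAs for the Qk gene (siQk, 3 libraries), and polyadenylated RNA was sequenced as paired-end reads. Per the labels, 3 different siRNAs were used for Qk, and which library received which of them is not given in the sources used here. No allele, strain or age distinguishes the groups in the labels.

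Intermediate filament proteins form rope-like polymers through a shared coiled-coil rod, and each cell type builds its network from its own set of subunits. Vim (vimentin) and Gfap (glial fibrillary acidic protein) can form filaments alone. Nes (nestin) and Synm (synemin) are long-tailed subunits that join vimentin or Gfap networks, and Nes is known as a marker of neural progenitors. Nefl, Nefm and Nefh encode the light, medium and heavy neurofilament subunits of axons, and Ina encodes alpha-internexin, which appears early in developing neurons. Gfap is best known from astrocytes, and glial precursors held in culture can also express it. Qk encodes the Quaking proteins, which bind RNA at ACUAA sequences and act on the splicing and stability of glial transcripts.

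In the siQk mOPCs the makeup of this family differed from that in siNC, with called glial members lower and called neuronal members higher. By mean RPKM, before the library factors used in the test, Gfap fell to 14.3% of its siNC level and Vim to 62.5%. By the same measure Nefl and Ina rose, to 339% and 312% of their siNC means. With the library factors, the log2 fold changes were -2.95 for Gfap, -0.82 for Vim, 1.61 for Nefl and 1.49 for Ina. Nes, Nefm and Synm did not pass the test. Nefh lay under the filter on low counts and was not tested. Of the 7 members tested, 4 were thus called changed, 2 lower and 2 higher, which is 57.1% of them, while 31.0% of all 12505 tested genes were called. Among all tested genes, 17.2% were called lower and 13.8% higher. With so few members, these shares describe the genes and single out no property of the family. A call means that edgeR's quasi-likelihood test gave an unadjusted P below 0.01 together with an FDR, by Benjamini-Hochberg over all tested genes, below 0.1. Each of the 7 kept its direction under all 17 alternative settings, other scalings included. The setting that changed only the cutoffs used the main fit, so its directions were fixed. The number called depended on single libraries. Without siNC replicate 2 all 7 were called, where 28.6% of all tested genes were, and without siQk replicate 3 only 1 was called lower, where 13.5% of all tested genes were. A fold-change cutoff asked for FDR below 0.05 and a log2 fold change of at least 1 in size, with no limit on unadjusted P. By it 4 members passed, with Synm (unadjusted P 0.0106 in edgeR) in the place of Vim, and 7.56% of all tested genes. In bulk RNA, fewer cells of a type and less RNA per cell cannot be told apart.

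**Figure D1:**
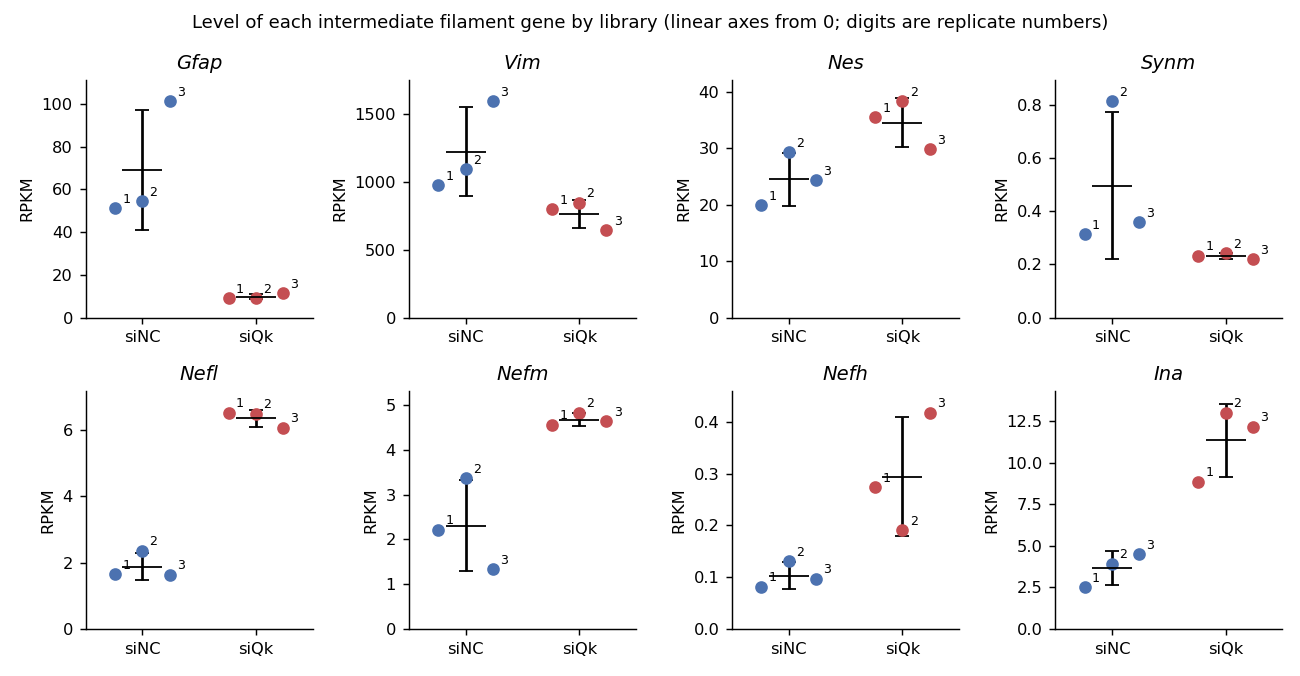
RPKM of the 8 intermediate filament genes (vertical axes, linear, from 0) in each siNC and siQk library, with the mean and SD of 3 libraries as black bars. No gene has a siNC library inside the range of its siQk libraries, with Gfap, Vim and Synm lower and the other 5 genes higher in siQk. Ranges without overlap were found for 58.3% of all tested genes, 16.4% lower and 41.9% higher in siQk.

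The libraries held 58166490 to 141045937 tags, where a tag number is the authors' estimated count per gene. RPKM is that number scaled by exon length and by library total. Library factors from TMM were 0.899 to 0.987 in siNC and 1.04 to 1.07 in siQk, so that unscaled RPKM lies relatively low in siNC and high in siQk. The ribosomal RNA gene Rn45s took 3.11% of the tags in the smallest library, siNC replicate 1, and 0.169% to 0.389% in the other libraries. Qk itself kept 28.4% of its siNC mean by unscaled RPKM (edgeR log2 fold change -1.98, SE 0.28, FDR 0.00311). The depth of the knockdown differed between libraries. Qk was at 209, 206 and 163 RPKM in siNC and at 51.3, 76.6 and 36.2 RPKM in siQk. All 8 OPC markers passed the filter, with 1 called lower and 3 higher, beside 17.2% and 13.8% of all tested genes. Their summed level was 1023 to 1100 RPKM in siNC and 1217 to 1370 RPKM in siQk. Olig1, a transcription factor of the lineage, was the highest of them in both groups, with a mean of 268 RPKM (SD 11.2, n = 3) for siNC and of 402 RPKM (SD 35.7) for siQk, and the receptor gene Pdgfra had means of 82.0 and 97.5 RPKM. The marker called lower was Lhfpl3, with means of 203 and 108 RPKM (log2 fold change -1.07). Of 10 fibroblast and vascular markers, 1 was tested and not called, and Col1a1 and Col1a2 did not exceed 0.113 and 0.00242 RPKM. Of 6 microglia markers, the defining ones, Aif1 and Cx3cr1, did not exceed 0.125 and 0.00461 RPKM, while P2ry12, the only one tested, was called lower (log2 fold change -3.16), and the list summed to 0.721 to 3.32 RPKM in siNC and 0.308 to 0.407 RPKM in siQk. The part of such cells in the levels of the members was not tested.

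Sequences that bear on Qk include the ACUAAC letters, or ACUAAU, in the 3'UTRs, since these are the core of the known Quaking binding element. They were searched on the transcript strand of the longest annotated 3'UTR of each member in GENCODE M21 (GRCm38, the assembly of mm10). Introns and coding bases were not searched, though the study describes such letters around exons regulated by a Quaking protein in another cell type. Gfap, Synm and Nefl held such letters, and Vim, Nes, Nefm, Nefh and Ina did not. The 30-base windows around the 4 matches follow, 5′ to 3′ in DNA letters with the matching 6 bases in capitals. They are shown because they are all the matches found in these 3'UTRs.
Gfap, chr11:102888472-102888501, minus strand: ccttcaccttcaACTAACaggatactcacc
Synm, chr7:67731070-67731099, minus strand: ttagaatgaaatACTAATtttcatttctaa
Synm, chr7:67730468-67730497, minus strand: taggaagcatgcACTAACtagcttatatcc
Nefl, chr14:68087763-68087792, plus strand: ataaatgaattcACTAATgttcatgtgcaa

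The Gfap match began at base 188 of a 3'UTR of 1341 bases. Of 2477 3'UTRs within 20% of that length, 34.0% held at least 1 match. For the 3276 bases of Synm the share of 3'UTRs of like length was 64.9%, and for the 1648 bases of Nefl it was 41.3%. The members with a match thus include the one that fell most by log2 fold change, Gfap, and the one that rose most, Nefl. The extended element also asks for a half-site, UAAC or the like with a final U, nearby, and no member had these letters within 20 bases of a match without overlap. A match is a stretch of letters and not a shown binding site. The exon length in the files is 2001 bases for Nefl while its annotated transcript has 3380 bases, and the annotation behind the files is not given in the sources used here.

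Gfap (Entrez gene 14580) is annotated on the minus strand of chromosome 11 between 102887336 and 102900912 (mm10). In siNC it was at 51.4, 54.6 and 101 RPKM in replicates 1, 2 and 3, from 12163, 24624 and 54478 tags. In siQk it was at 9.16, 9.08 and 11.3 RPKM, from 5262, 3058 and 5822 tags. The siQk libraries lay close together and far under the lowest siNC library, while siNC replicate 3 stood above both other siNC libraries. The means were 69.1 ± 27.9 RPKM (SD, n = 3) and 9.85 ± 1.26 RPKM (SD, n = 3). In edgeR, the test put the log2 fold change at -2.95 (SE 0.26, FDR 0.000895), and 25 of the 12505 tested genes had a lower one. An exact permutation test of the RPKM values gave p = 0.1, two-sided, the smallest p that 3 libraries against 3 allow, as it did for each of the 8 members. By mean RPKM, 1012 genes stood above Gfap in siNC and 6757 in siQk. The call for Gfap was made under each of the 17 alternative settings, with log2 fold changes from -3.10 to -2.60.

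Vim (Entrez gene 22352; chromosome 2, 13573927 to 13582826, plus strand) was the most abundant member per exon length in both groups. Its siNC levels were 976, 1096 and 1596 RPKM, and its siQk levels were 800, 847 and 645 RPKM. The gap between the lowest siNC and the highest siQk library was small beside the spread within siNC, where replicate 3 was again the highest. The means were 1223 ± 329 RPKM (SD, n = 3) and 764 ± 106 RPKM (SD, n = 3). In edgeR, the test put the log2 fold change at -0.82 (SE 0.18, FDR 0.0138). The call was lost without siQk replicate 3 (log2 fold change -0.72, FDR 0.0455), where the unadjusted P was 0.0117. It was also lost under the fold-change cutoff, since the change was smaller than 1 on the log2 scale. Even after the fall, Vim remained among the most abundant transcripts, with 9 genes above it by mean RPKM in siNC and 14 in siQk.

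**Figure D2:**
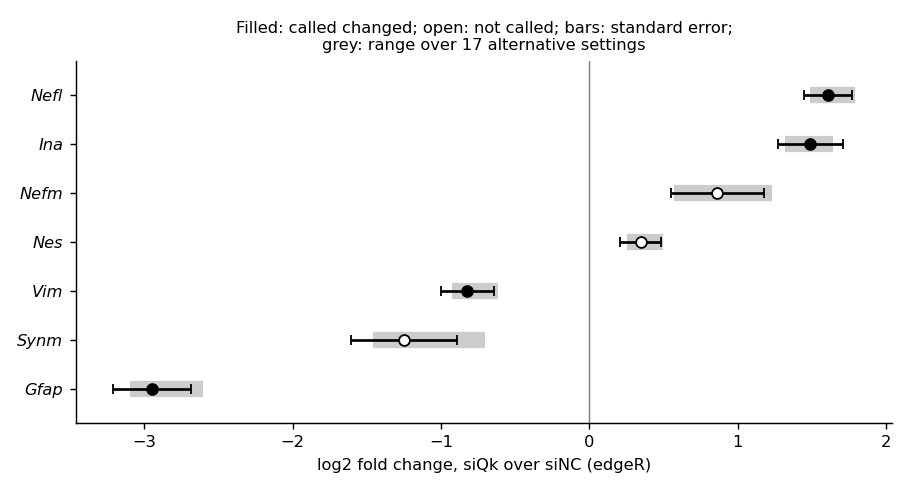
Log2 fold change of siQk over siNC (horizontal axis) for the 7 tested members, with the edgeR estimate as a point, its standard error as a bar and the range over 17 alternative settings in grey. Filled points mark the called genes Gfap, Vim, Ina and Nefl, and no grey range crosses 0.

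Synm (Entrez gene 233335; chromosome 7, 67730160 to 67759742, minus strand) encodes synemin, a linker-like subunit that cannot form filaments alone. It was low, at 0.315, 0.815 and 0.360 RPKM in siNC libraries and at 0.233, 0.243 and 0.219 RPKM in siQk libraries. The siNC spread was set by replicate 2, while the siQk values were nearly equal. In edgeR, the test put the log2 fold change at -1.25 (SE 0.36, FDR 0.0336), with an unadjusted P of 0.0106, so that it missed the cutoff on P. It was called under 8 of the 17 alternatives, among them the fit without siNC replicate 2, which gave a smaller log2 fold change of -0.71 with FDR 0.0161. Exons of Synm share 84 bases with Ttc23 and 426 bases, or 5.37% of the Synm exon bases, with Gm45102, both on the other strand. The library kit does not mark strand.

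Nes (Entrez gene 18008; chromosome 3, 87971078 to 87980451, plus strand) was at 19.9, 29.2 and 24.3 RPKM in siNC libraries and at 35.5, 38.3 and 29.7 RPKM in siQk libraries. The groups met closely, since siNC replicate 2 lay just under siQk replicate 3. In edgeR, the test put the log2 fold change at 0.35 (SE 0.14, FDR 0.0880, unadjusted P 0.0407), which is not a call, and only the fit without siNC replicate 2 called it (0.48, FDR 0.0265). Nes is used as a progenitor marker, so its companions in radial glia were read beside it. The 7 markers of neural stem cells and radial glia summed to 1194 to 1677 RPKM in siNC and to 2871 to 3287 RPKM in siQk, most of it from Fabp7, with means of 1169 and 2786 RPKM. Of the 6 of them that were tested, Fabp7, a fatty acid binding protein, and Hes5, a Notch target, were called higher (log2 fold changes 1.09 and 1.90). The other 4 were not called, and 13.8% of all tested genes were called higher. Their log2 fold changes were -0.43 for Hes1, -0.11 for Sox2, 0.24 for Notch1 and 0.31 for Pax6. Pax6 did not exceed 2.15 RPKM. The part of such cells in the level of Nes was not tested.

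The neuronal members were all low beside Vim, and by RPKM each was higher in every siQk library than in every siNC library. The same held by RPKM for 41.9% of all tested genes. Nefl (Entrez gene 18039; chromosome 14, 68083863 to 68089095, plus strand), the core subunit of neurofilaments, was at 1.64, 2.35 and 1.63 RPKM in siNC, from 191, 522 and 432 tags. In siQk it was at 6.52, 6.48 and 6.06 RPKM, from 1840, 1073 and 1535 tags. The siQk libraries were nearly equal, and none came near the siNC range. In edgeR, the test put the log2 fold change at 1.61 (SE 0.16, FDR 0.00117), and 100 tested genes had a higher one. It was called under each of the 17 alternatives, from 1.49 to 1.79.

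Ina (Entrez gene 226180; chromosome 19, 47014698 to 47025327, plus strand) was at 2.51, 3.92 and 4.50 RPKM in siNC libraries and at 8.86, 13.0 and 12.2 RPKM in siQk libraries. The lowest siQk library stood well above the highest siNC library. In edgeR, the test put the log2 fold change at 1.49 (SE 0.22, FDR 0.00369), and the 17 alternatives called it with values from 1.32 to 1.64. The start of Ina overlaps Nt5c2 on the other strand by 456 bases, which is 14.1% of the exon bases of Ina. Nt5c2 averaged 12.8 ± 1.43 RPKM (SD, n = 3) for siNC and 18.0 ± 1.70 RPKM for siQk (log2 fold change 0.34, FDR 0.0245 from edgeR), a smaller change than that of Ina. Reads in the shared bases cannot be told apart between the pair.

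Nefm (Entrez gene 18040; chromosome 14, 68082590 to 68124846, minus strand) was at 2.21, 3.37 and 1.33 RPKM in siNC libraries and at 4.56, 4.83 and 4.64 RPKM in siQk libraries. The siNC libraries differed widely and the siQk libraries hardly at all. Its log2 fold change of 0.86, SE 0.31 (edgeR FDR 0.0668, unadjusted P 0.0278) was not a call, while the fit without siNC replicate 2 gave 1.23 with FDR 0.0176. Nefl and Nefm are neighbours, and 1 annotated Nefm transcript reaches across Nefl on the other strand with 1108 shared exon bases, or 32.8% of the exon bases of Nefl. The files give Nefm 3230 exon bases against 3680 for its longest annotated transcript, so whether that exon was counted for Nefm is not known.

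Nefh (Entrez gene 380684; chromosome 11, 4938754 to 4948064, minus strand), the subunit of mature, thick axons, was the lowest member in siNC. It had 19, 58 and 51 tags in siNC and 154, 63 and 211 tags in siQk, or 0.0818, 0.131 and 0.0967 RPKM against 0.274, 0.191 and 0.418 RPKM. The siQk values were more spread than the siNC values, with replicate 2 nearest to siNC. Its average abundance lay under the filter (average logCPM over 0). Without that filter edgeR put the log2 fold change at 1.38 (SE 0.34, FDR 0.0202), which would be a call, with 11.0% of the genes then tested called higher. It rests on at most 211 tags per library.

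Markers of neurons and astrocytes were read beside these members, since both cell types carry the filaments in question. Of the 10 neuron markers, which leave out the filament genes, 9 were tested. Of them 3 were called higher and none lower (6 higher and none lower with library size only), where 13.8% of all tested genes were called higher in the main fit. The called markers were Snap25, a synaptic membrane fusion protein (log2 fold change 2.64), Syp (0.79) and Map2 (0.57). Of the markers not called, Elavl3 (-0.61), Rbfox3 (-0.57) and Tubb3 (-0.57) had negative log2 fold changes. Positive ones were found for Syt1 (0.87), Dcx (0.81) and Elavl4 (0.61). Syp was called in 12 of the 17 alternatives, and not without siNC replicate 1 or 3 or siQk replicate 3. The defining marker Stmn2 did not exceed 0.0439 RPKM in any library, and Tubb3, the highest of the list in siNC and next to Map2 in siQk, averaged 123 ± 37.2 RPKM (SD, n = 3) for siNC and 91.9 ± 20.3 RPKM for siQk with no call. The summed level of the neuron list overlapped between groups, with 208 to 296 RPKM in siNC against 231 to 279 RPKM in siQk. Of the 10 astrocyte markers besides Gfap, 8 were tested, and 4 were called lower and none higher, where 17.2% of all tested genes were called lower. These were Aldh1l1 (-2.21), Slc4a4 (-1.57) and the glutamate transporters Slc1a3 (-1.38) and Slc1a2 (-1.06). The call for Slc4a4 was lost without any 1 of the 3 siQk libraries. The gap junction genes that define astrocytes were at or near 0, with Gja1 at most 0.0130 RPKM and Gjb6 at most 0.00924 RPKM. Aldoc, the highest of the list at 94.9 ± 10.9 RPKM in siNC, had a log2 fold change of 0.034. The summed level of the astrocyte list overlapped between groups, with 131 to 165 RPKM in siNC against 130 to 148 RPKM in siQk. The part of these cell types in the levels of Gfap, Nefl or Ina was not tested.

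Within the siNC group the members did not vary together. Gfap, Vim and Ina were highest in replicate 3, while Nes, Synm, Nefl, Nefm and Nefh were highest in replicate 2. The SD over the siNC libraries came to 40.5% of the mean for Gfap, 55.7% for Synm, 44.4% for Nefm and 26.9% for Vim. In siQk it came to 12.8%, 5.15%, 2.98% and 13.8% for the same genes. Nefh was the exception, with 24.5% in siNC and 39.1% in siQk. The order of levels also differed between the groups. By mean RPKM in siNC it ran from Vim over Gfap, Nes, Ina, Nefm, Nefl and Synm to Nefh, where the ranges of Ina and Nefm and of Nefm and Nefl overlapped. In siQk it ran from Vim over Nes, Ina, Gfap, Nefl, Nefm and Nefh to Synm, where the ranges of Ina and Gfap and of Nefh and Synm overlapped. Gfap thus stood above Nes in each siNC library and below Nes in each siQk library. These orders rest on the deposited exon lengths, and by tags Gfap stood above Ina in each siQk library.

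That all 8 members had RPKM ranges that did not overlap between the groups, 3 lower and 5 higher in siQk, is to be read against the other genes. Of all tested genes, 58.3% had ranges without overlap, 16.4% with siQk lower and 41.9% with siQk higher.

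The members were also compared by their shares within each library, which do not depend on the scaling between libraries. Summed over the 8 members, RPKM was 1325 ± 357 (SD, n = 3) in siNC and 831 ± 109 in siQk. Vim made up 92.3% ± 0.27 of that sum in siNC and 91.8% ± 0.83 in siQk, with overlapping ranges (exact permutation test, two-sided, p = 0.5). The share of Gfap was 4.87%, 4.58% and 5.86% in siNC and 1.06%, 0.988% and 1.59% in siQk. The share of Nes was 1.89%, 2.46% and 1.40% in siNC and 4.10%, 4.16% and 4.19% in siQk. Nes therefore took the place of Gfap as the member next behind Vim. Gfap came behind Nes and Ina by mean RPKM in siQk, with a range that overlapped that of Ina. By tags Gfap stood above Ina in each siQk library (5262, 3058 and 5822 against 2824, 2433 and 3480). The deposited exon lengths are 4072 bases for Gfap and 2259 for Ina, against longest annotated transcripts of 2648 and 3240. By share of tags, where longer genes weigh more, the difference between the groups was -7.80 percentage points for Gfap in place of -3.89, 6.85 for Nes in place of 2.24, and -1.46 for Vim in place of -0.47. The 4 neuronal genes together were at 6.45, 9.78 and 7.56 RPKM in siNC libraries and at 20.2, 24.5 and 23.3 RPKM in siQk libraries. Exact permutation tests of the shares gave p = 0.1 for Gfap, Nes, Nefl, Nefm, Nefh and Ina, the smallest p possible, with 0.133 after adjustment over the 8 members, and p = 0.8 for Synm.

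**Figure D3:**
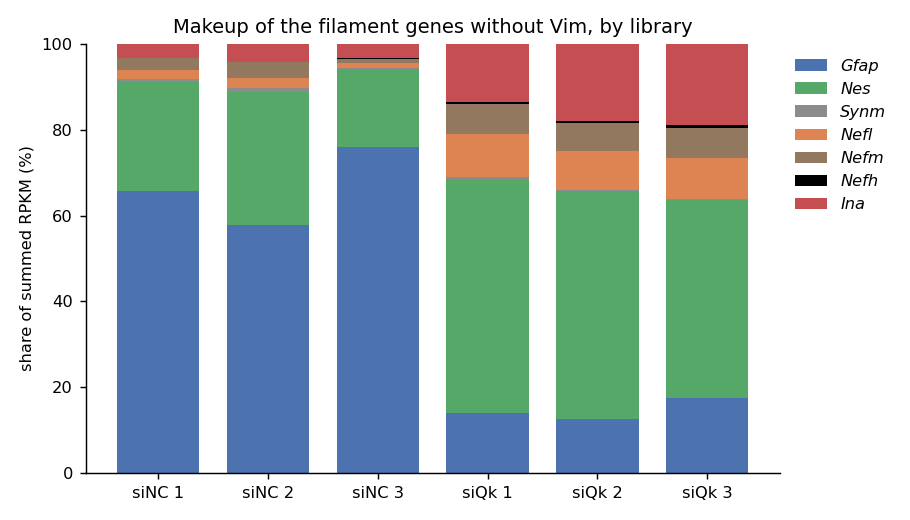
Share of each of the 7 members besides Vim in their summed RPKM (vertical axis, percent), with 1 stacked bar per library. Gfap takes 57.8% to 75.9% in siNC and 12.6% to 17.5% in siQk, where Nes takes 46.1% to 54.5%.

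Among the 7 members without Vim, Gfap held 66.5% ± 9.05 (SD, n = 3) of their summed RPKM in siNC and 14.7% ± 2.52 in siQk. Nes held 24.9% ± 6.41 and 51.2% ± 4.51. Ina held 3.58% ± 0.50 and 16.8% ± 2.83, and Nefl 1.94% ± 0.65 and 9.47% ± 0.52. No siNC library overlapped a siQk library in any of these shares (exact permutation test, p = 0.1 each, the smallest possible).

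Per 100 RPKM of Vim, Gfap was at 5.26, 4.98 and 6.35 RPKM in siNC libraries and at 1.14, 1.07 and 1.75 RPKM in siQk libraries. The siNC values, with a mean of 5.53 (SD 0.722, n = 3), lay closer together in proportion than the levels of Gfap themselves, while the siQk values, with a mean of 1.32 (SD 0.374), did not. The mean log2 ratio of Gfap to Vim was lower in siQk than in siNC by a difference of -2.09, without overlap between the groups (exact permutation test, two-sided, p = 0.1, and 0.117 after adjustment over 7 ratios). For Nefl, Ina, Nefh, Nefm and Nes the log2 ratio to Vim was higher in siQk, by 2.44, 2.32, 2.12, 1.77 and 1.16. For Synm it differed by -0.31 with overlapping groups (exact permutation test, p = 0.8), and by 0.18 without siNC replicate 2. Against Nefm, the level of Nefl was 74.1, 69.8 and 123 RPKM per 100 RPKM in siNC and 143, 134 and 131 in siQk, where siNC replicate 3 lay near the siQk values.

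**Figure D4:**
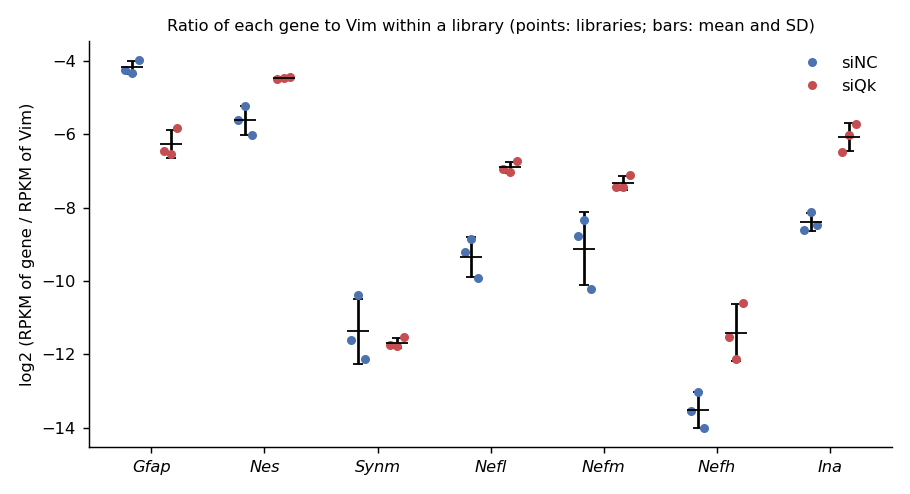
Log2 of the RPKM of each member over the RPKM of Vim in the same library (vertical axis), with 1 point per library and the mean and SD of 3 libraries as bars. Gfap lies lower in siQk, Synm overlaps between the groups, and the other 5 genes lie higher in siQk.

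The promoters of a pair that fell, Gfap and Vim, and of a gene that rose, Ina, are shown because their genes moved in opposite senses. Each is 300 bases, 250 before to 50 after the RefSeq start on GRCm38.p6, 5′ to 3′ on the strand of the gene, and 5 of the 8 members had an entry. Capitals mark matches on either strand to the TATA box TATAAA, the CCAAT box, the GC box GGGCGG, the AP-1 element TGANTCA, the STAT element TTCNNNGAA and the palindromic NF-I element, a list chosen after the values had been seen. A match is a description, not a site.
Gfap, chr11:102897151-102897450, minus strand: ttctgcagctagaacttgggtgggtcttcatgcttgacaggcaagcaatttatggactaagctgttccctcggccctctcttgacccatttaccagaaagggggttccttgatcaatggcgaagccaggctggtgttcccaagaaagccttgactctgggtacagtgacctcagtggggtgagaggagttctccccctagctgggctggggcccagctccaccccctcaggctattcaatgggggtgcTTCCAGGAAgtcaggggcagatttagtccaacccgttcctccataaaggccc
Vim, chr2:13574061-13574360, plus strand: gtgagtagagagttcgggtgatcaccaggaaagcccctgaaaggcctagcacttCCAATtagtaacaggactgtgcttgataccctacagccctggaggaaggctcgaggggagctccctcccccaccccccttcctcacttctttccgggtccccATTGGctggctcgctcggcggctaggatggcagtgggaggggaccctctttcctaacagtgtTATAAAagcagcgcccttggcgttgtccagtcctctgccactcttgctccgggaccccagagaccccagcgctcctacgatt
Ina, chr19:47014431-47014730, plus strand: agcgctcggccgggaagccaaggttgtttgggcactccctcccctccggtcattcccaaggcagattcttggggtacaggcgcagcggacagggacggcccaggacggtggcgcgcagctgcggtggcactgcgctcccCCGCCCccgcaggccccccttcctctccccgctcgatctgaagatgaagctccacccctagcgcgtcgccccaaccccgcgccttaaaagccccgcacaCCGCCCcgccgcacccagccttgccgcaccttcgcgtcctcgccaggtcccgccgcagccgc

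Gfap had 1 STAT match, a kind found in 8.30% of the 32851 promoters of this length. Vim had 1 TATA box, found in 13.6%, and 2 CCAAT boxes, found in 37.4%. Ina had 2 GC boxes, found in 35.7%, and the Ina window was richer in G and C, at 71.7% against 55.7% for Gfap and 59.3% for Vim. Nes also had 2 GC boxes and Synm 1 CCAAT box. The AP-1 letters, found in 7.81% of promoters, and the NF-I element, found in 0.0365%, were in none of the 5 windows. Gfap and Vim shared none of the searched letters in these windows.

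Other intermediate filament genes were read from a list of 19. Of these, 8 passed the filter, and 2 were called lower, 3 higher and 3 not at all. Their median log2 fold change was -0.30 against 0.01 for all tested genes, of which 17.2% were called lower and 13.8% higher. Prph, which encodes peripherin, a filament of peripheral and some spinal neurons, averaged 2.50 ± 0.83 RPKM (SD, n = 3) for siNC and 0.651 ± 0.15 RPKM for siQk (edgeR log2 fold change -2.08, SE 0.29, FDR 0.00327). Its direction was therefore opposite to that of Nefl and Ina. Bfsp2, known as a beaded filament gene of the eye lens, had a mean of 39.5 RPKM in siNC and of 20.6 RPKM in siQk (log2 fold change -1.09, FDR 0.00590). The B-type nuclear lamin genes rose. Lmnb1 had a log2 fold change of 0.73 (FDR 0.00592) and Lmnb2 of 0.61 (FDR 0.00977), while the A-type gene Lmna had -0.50 without a call (FDR 0.0418). Des, the muscle filament gene, and the keratin genes Krt7, Krt14, Krt18 and Krt20 were listed at 0 in every library.

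Partners of intermediate filaments made a list of 18 genes, 15 of them tested, with 6 called lower, 3 higher and 6 not called. The shares over all tested genes were 17.2% lower and 13.8% higher. Plec, Dst and Macf1, the 3 plakins of the list that were tested, were called lower, while the plakin genes Eppk1 and Dsp lay under the filter. Plakins are large proteins that tie filaments to other structures. Plec (plectin) fell from 4.80 ± 1.19 to 1.93 ± 0.21 RPKM (edgeR log2 fold change -1.46, SE 0.18, FDR 0.00202). Dst, at over 40 RPKM in both groups, had a log2 fold change of -0.52 (FDR 0.00327), and Macf1 one of -0.27 (FDR 0.0246) that 10 of the 17 alternatives did not call. Syne3, a nesprin that links plectin to the nucleus, had one of -0.89 (FDR 0.0172), which was called in 13 of the 17 alternatives and not without siQk replicate 1 or 2. The 3 genes called higher were Plk1, Aurkb and Cdk1, mitotic kinases that phosphorylate vimentin, with log2 fold changes of 1.72, 1.71 and 1.38. Rock1, another kinase of the list, was called lower (log2 fold change -0.41, FDR 0.00760), and in 15 of the 17 alternatives. Cdk5, a neuronal kinase that acts on neurofilaments, averaged 74.3 ± 4.55 RPKM for siNC and 58.9 ± 2.94 RPKM for siQk (log2 fold change -0.49, FDR 0.00541). Cryab, a chaperone of Gfap, had a log2 fold change of -1.65 with no call (FDR 0.0631). With library size as the only scaling, which moved the median change across the tested genes to 0.16, 4 partners were called lower and 3 higher, and the median over the partners turned from -0.14 to 0.011.

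Regulators known to act on the Gfap gene made another list of 13 genes, all tested. Beside 31.0% of all tested genes called, 1 of the regulators was called lower, 2 higher and 10 not at all. Without siQk replicate 2, and likewise without siQk replicate 3, only 1 of them was called. Stat3, the factor that carries cytokine signals to the Gfap promoter, averaged 131 ± 15.7 RPKM (SD, n = 3) for siNC and 158 ± 2.42 RPKM for siQk (log2 fold change 0.13, FDR 0.264 from edgeR). Its kinase gene Jak2 was at 60.9 ± 8.02 and 73.8 ± 4.45 RPKM, also without a call (FDR 0.300). Lifr, a receptor of the same pathway, had a log2 fold change of -0.50 (FDR 0.0151), a call made in 13 of the 17 alternatives. It was lost with library size only, under the fold-change cutoff and without siQk replicate 2 or 3. Sox9 (0.42, FDR 0.0190) and Dnmt1, which maintains DNA methylation (0.41, FDR 0.00753), were called higher. The call for Sox9 was made in 11 of the 17 alternatives and lost, among others, when replicate 2 or 3 of either group was left out. Nfia and Nfib, which take part in the onset of Gfap expression in gliogenesis, had log2 fold changes of 0.023 and 0.15 without a call.

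**Figure D5:**
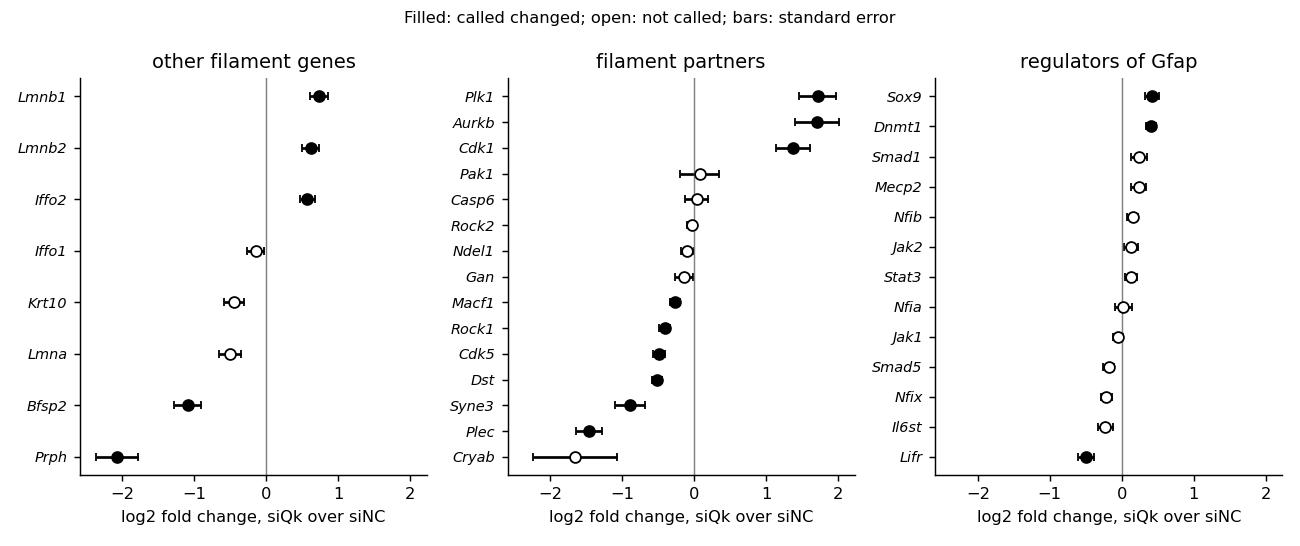
Log2 fold change of siQk over siNC (horizontal axes) with its standard error for the tested genes of the 3 lists, with called genes filled. The partners range from -1.65 for Cryab to 1.72 for Plk1, and the regulators of Gfap from -0.50 for Lifr to 0.42 for Sox9.

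The genes whose profile over the 6 libraries was nearest to that of Gfap were found by the root mean square difference of log2 CPM, after each gene's mean had been taken away. They were Casq2, Myh8, Reln, Met and Tgfbi, at differences of 0.21, 0.23, 0.23, 0.24 and 0.25 on the log2 scale. Reln was at 7.77, 8.54 and 13.8 RPKM in siNC libraries and at 1.33, 0.946 and 1.23 RPKM in siQk libraries, so that siNC replicate 3 was the highest library for it as for Gfap. Tgfbi was at 3.83, 4.32 and 5.05 RPKM in siNC libraries and at 0.515, 0.558 and 0.588 RPKM in siQk libraries. Casq2 did not exceed 1.49 RPKM, Myh8 0.780 RPKM and Met 0.804 RPKM. Among the members, Vim came nearest to Gfap, at a difference of 1.07 as number 735 in that order.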

How the data were processed

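RNA from siNC and siQk mOPCs was measured in 6 libraries, 3 per group, assigned by their titles. The study describes the replicates as independent cultures. Alignment by the authors was to mm10 with OLego, and Quantas gave the gene values. Tool versions and the annotation are not given in the sources used here. The authors deposited an estimated count of tags per gene, its exon length and the RPKM, which equals tags over exon length and library total (largest relative deviation among values over 0.1 RPKM below 1e-10). No replicate pair differed by as little as sampling noise (chi-square per degree of freedom 36.3 or more).

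Estimated counts were rounded. Genes with an average logCPM over 0 were tested with edgeR 4.0.16 (limma 3.58.1, R 4.3.3), quasi-likelihood, TMM, group as the only term. Called means P below 0.01 and FDR below 0.1. The SE of a log2 fold change is its size divided by the square root of F. Shares and ratios were compared by exact permutation. The fit was checked on simulated data with known changes. Alternatives included DESeq2 1.42.0, other scalings, filters, cutoffs, the replicate number as a block, thinning to the smallest library and each library left out.

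The members and the gene lists were chosen with earlier results of these data known, and the promoter motifs after the values had been seen. Syne3 and Map2 were matched by Entrez identifier. Named list genes were those with the largest absolute log2 fold changes among called ones (up to 4 per list), those over 50 RPKM in all libraries and defining or highest markers. All other list genes and markers, such as Dst, Macf1, Syne3, Cryab, Lmna, Nfia, Nfib, Hes5, P2ry12, and the called neuron and astrocyte markers, were named after their values were seen.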

Additional observations from a re-analysis of the deposited data

How the results depend on the processing

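Over 17 alternatives for each of the 7 tested members, 102 of 119 log2 fold changes kept their side of the cutoffs, 3 lost a call and 14 gained one, and none changed sign. The setting that changed only the cutoffs used the log2 fold changes of the main fit, so no sign could change there. Gfap, Nefl and Ina were called under all 17. Vim lost its call with the replicate number as a block (-0.80, P 0.0134), with FDR below 0.05 and a change of at least 1 on the log2 scale required (-0.82), and without siQk replicate 3. Synm was called with DESeq2 (-1.26), edgeR's exact and likelihood ratio tests (-1.25 each), no filter on low counts (-1.23), and that fold-change cutoff (-1.25). It was also called when any 1 siNC library was left out. Nefm was called with library size only (1.02), DESeq2 (0.86), edgeR's exact and likelihood ratio tests (0.86 each) and without siNC replicate 2 (1.23). With 1 library left out, log2 fold changes ranged from -0.93 to -0.62 for Vim, from -1.46 to -0.71 for Synm, from 0.25 to 0.48 for Nes and from 0.57 to 1.23 for Nefm. The number of members called then ranged from 3 to 7, the lower ones from 1 to 3 and the higher ones from 2 to 4. Without siNC replicate 2 all 7 were called, and without siQk replicate 3 only 1 was called lower. With the replicate block 1 was called lower, Gfap.

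Over all tested genes the replicate numbers showed no pairing, and whether they pair cultures is not given in the titles. Libraries with a shared number deviated from their group means with correlations of -0.053, -0.15 and -0.34, and 0 of 6 libraries correlated best with its own number. With the replicate block, 2796 genes were called instead of 3879.

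Against the geometric mean of the 8 members instead of Vim, the log2 ratio of Gfap differed by -3.02 and that of Synm by -1.24, while the differences of Nefl, Ina, Nefh, Nefm and Nes shrank to 1.51, 1.39, 1.19, 0.85 and 0.23. Shares and ratios of Synm turned to the other side of 0 without siNC replicate 2 (share differences from -0.0211 to 0.00272 percentage points and log2 ratio differences from -0.68 to 0.18 with 1 library left out). Of the list counts, 5 of 51 were smaller by over 1.5 times. With the fold-change cutoff, 2 other filament genes, 4 partners and 0 regulators were called. Without siQk replicate 2 or without siQk replicate 3, 1 regulator was called. The replicate block also ended the calls of Slc4a4, Syp, Syne3, Macf1 and Sox9. Why these values moved was not tested. Of all genes, 946 were called under that cutoff and 2478 without siQk replicate 1. The calls split into 2149 lower and 1730 higher, but 1365 lower and 2989 higher with library size only, and 1785 lower and 2234 higher with upper quartile scaling. Thinned to the smallest library, 3817 genes were called.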
